A study of Homo sapiens with 8 samples.

Results

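The 10 genes described here encode cell surface, membrane-associated and cytoplasmic proteins that are used as markers of the mesenchymal or progenitor state of neuroblastoma cells, namely VIM, NES, CD44, NT5E, ANXA1, ANXA2, S100A6, S100A10, LGALS1 and CAV1. They were taken by symbol from a count table of 60659 genes, in which all 10 were found, and all 10 were expressed well above the filter on low counts in every comparison. RNA was measured in SK-N-SH, a human neuroblastoma line that is known to hold both neuroblastic and flat, substrate-adherent cells, and every library came from cells given 10 uM all-trans retinoic acid (ATRA), an inducer of neuronal differentiation, for 24 h. The 8 libraries formed 4 groups of 2. In the overexpression experiment, parental cells treated with ATRA and doxycycline (Dox) were the control. Cells carrying a Dox-inducible ZMYND8 construct, labelled FLAG ZMYND8, with the same ATRA and Dox were the ZMYND8 overexpression (OE) group. In the knockdown experiment, control knockdown cells with ATRA (KD control) were set against cells with ZMYND8 knockdown and ATRA (ZMYND8 KD), and their labels name no Dox. The construct was delivered by lentivirus and the cells were selected with an antibiotic, and the labels give the parental cells neither a vector nor that selection. Vector, selection and ZMYND8 thus cannot be told apart in the OE comparison. The labels call the replicates biological. The p-values rest on the spread between the 2 libraries of a group, pooled over the groups in the model. That spread is also drawn towards values shared across genes.

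Neuroblastoma cells can take an adrenergic state, with the transcription factors and enzymes of sympathetic neurons, or a mesenchymal state, with filaments, adhesion receptors and matrix genes that resemble those of neural crest precursors. VIM and NES form intermediate filaments, CD44 and NT5E (CD73) are surface proteins, ANXA1 and ANXA2 bind membrane lipids with calcium, S100A6 and S100A10 are small S100 proteins that bind annexins, LGALS1 is a secreted lectin, and CAV1 coats the small membrane pits called caveolae. ZMYND8 is a chromatin reader protein, and the comparisons ask how its gain or loss under ATRA went with the level of these genes.

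The libraries held 38316523 to 56256979 counts on genes. ZMYND8 itself had 3089 and 3612 counts in parental cells against 220691 and 182849 in ZMYND8 OE cells, and 3128 and 3374 counts in KD control cells against 1641 and 1640 in ZMYND8 KD cells, so the targeted gene moved as labelled in both experiments. Its log2 fold change was 5.87 with OE and -0.94 with KD, and the construct and the endogenous gene cannot be told apart in these counts. The experiments also differed from each other in that mitochondrially encoded genes took 0.11% to 0.17% of counts in the overexpression experiment and 2.92% to 3.41% in the knockdown experiment.

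With ZMYND8 OE, all 10 marker genes were lower than in parental cells, in each of the 2 libraries against each of the 2, by 1.40-fold to 5.84-fold. How many of all tested genes were separated in this way was not counted. The share of all counts on the 10 genes was 0.758% and 0.752% in parental libraries against 0.391% and 0.348% in OE libraries. In edgeR's quasi-likelihood test the 10 of 10 genes had an adjusted p below 0.05 and a lower level, where 29.1% of all 20835 tested genes did, and 31.7% were higher. Among genes of a mean normalized count above 1000, as all 10 had, 47.9% were lower at that threshold. A decrease that also reached 1 on the log2 scale, with a mean normalized count above 20, was found for 6 of the 10 (CD44, NT5E, ANXA1, ANXA2, S100A6 and CAV1) against 6.84% of tested genes and 7.75% of those above the mean of 1000. The median log2 fold change was -1.27 over the 10 genes and 0.03 over all tested genes. Since the markers were chosen with earlier results of these data known, these shares describe them and are no independent test. In bulk RNA, fewer cells of the mesenchymal type and less of these RNAs per cell cannot be told apart.

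**Figure D1:**
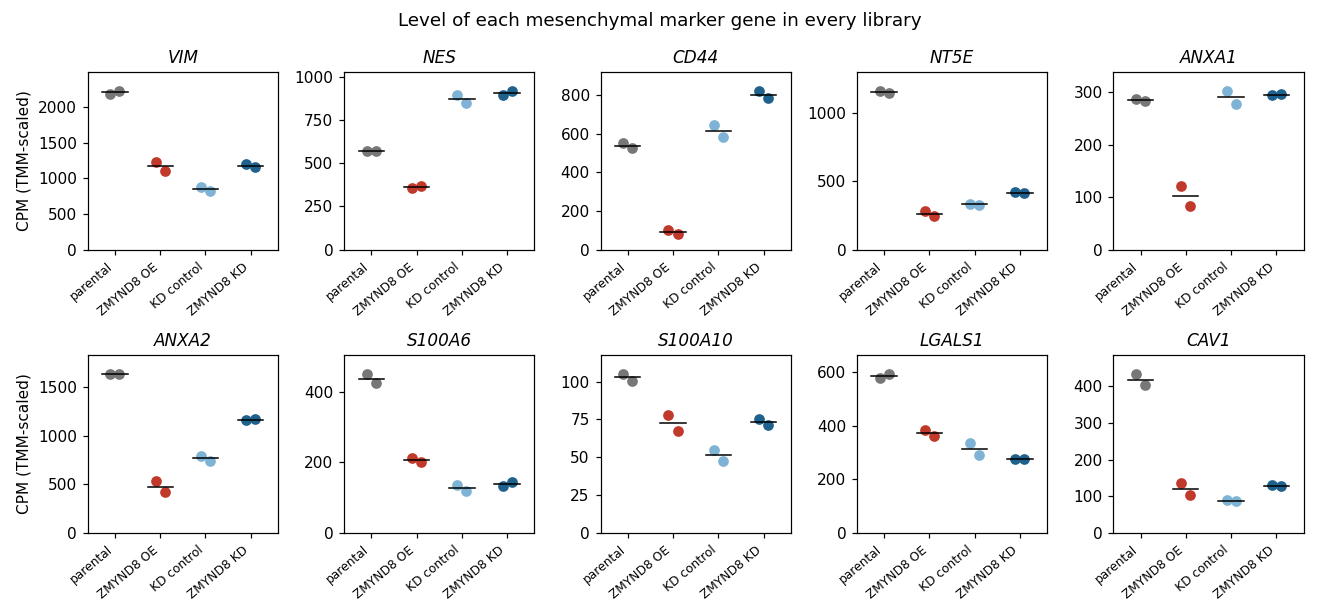
Level of each of the 10 marker genes, in CPM scaled by TMM factors over the 8 libraries, on linear axes that start at 0. Points are libraries, coloured by group, and black lines are the means of the 2 libraries. The red points of ZMYND8 OE lie below the grey parental points for all 10 genes, with CD44 at 103 and 79.5 CPM against 550.4 and 524 CPM.

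CD44 and NT5E, the surface proteins, had the largest decreases. Levels are given as CPM, the counts of a gene relative to the TMM-scaled size of its library. CD44, the receptor for the matrix polymer hyaluronan (ENSG00000026508, GRCh38 chr11:35138882-35232402, plus strand), was at 550.4 and 524 CPM in parental libraries and at 103 and 79.5 CPM in OE libraries. It was 5.84-fold lower, a log2 fold change of -2.55 (SE 0.0995, adjusted p = 5.88e-09). NT5E, the ectonucleotidase that turns extracellular AMP into adenosine and a defining surface marker of mesenchymal stromal cells (ENSG00000135318, chr6:85449584-85495791, plus strand), was at 1162 and 1148 CPM against 281 and 245 CPM. Its groups did not overlap either, with a log2 fold change of -2.12 (SE 0.0671, adjusted p = 1.37e-09), or 4.36-fold lower. CAV1, the main coat protein of caveolae (ENSG00000105974, chr7:116524994-116561179, plus strand), was at 434 and 403 CPM against 137 and 102 CPM, and fell by 1.80 on the log2 scale (SE 0.109, adjusted p = 1.79e-07).

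The annexins, which bind membrane phospholipids in the presence of calcium, fell together. ANXA2 (ENSG00000182718, chr15:60347134-60402883, minus strand), the annexin of cell surface plasminogen activation, was at 1633 and 1635 CPM in parental libraries and at 533 and 418 CPM in OE libraries. It was 3.41-fold lower (log2 fold change -1.77, SE 0.0935, adjusted p = 5.74e-08). ANXA1 (ENSG00000135046, chr9:73151865-73170393, plus strand), known as a mediator that limits inflammation, was at 287 and 283 CPM against 122 and 82.4 CPM. Its OE libraries lay further apart than those of the other markers in relation to their mean, and it fell by 1.47 on the log2 scale (SE 0.134, adjusted p = 4.39e-06).

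S100A6 and S100A10, of the S100 family of small proteins that partner annexins, had smaller log2 fold changes. S100A6, or calcyclin (ENSG00000197956, chr1:153534599-153536244, minus strand), was at 450 and 425 CPM in parental libraries and at 212 and 201.5 CPM in OE libraries, with a log2 fold change of -1.07 (SE 0.0522, adjusted p = 3.05e-08). S100A10, or p11, which forms a tetramer with ANXA2 (ENSG00000197747, chr1:151982915-151993859, minus strand), was at 105 and 101 CPM against 78.1 and 67.6 CPM. Its decrease was the smallest of the 10, with 1.40-fold lower levels and a log2 fold change of -0.49 (SE 0.0677, adjusted p = 0.000112), and its groups still did not overlap.

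The filament genes and the lectin fell by less than 1 on the log2 scale. VIM, or vimentin (ENSG00000026025, chr10:17228241-17237593, plus strand), was at 2184 and 2225 CPM in parental libraries and at 1231 and 1101 CPM in OE libraries, with a log2 fold change of -0.91 (SE 0.0602, adjusted p = 3.44e-07). NES, or nestin, the filament protein of neural progenitors (ENSG00000132688, chr1:156668763-156677407, minus strand), was at 571 and 569 CPM against 357 and 369 CPM. That is 1.56-fold lower, with a log2 fold change of -0.64 (SE 0.0473, adjusted p = 8.06e-07). LGALS1, or galectin-1, which binds beta-galactosides on the cell surface (ENSG00000100097, chr22:37675636-37679802, plus strand), was at 579.6 and 592 CPM against 384 and 363 CPM. Its log2 fold change of -0.64 (SE 0.0508, adjusted p = 1.45e-06) was like that of NES.

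Because the 10 genes moved in 1 direction with OE, their promoters were read for shared short motifs. RefSeq sequences on GRCh38.p14 were given for 9 of the 10, and LGALS1 had no entry. The 250 bases before the start that RefSeq gives are printed for the 4 genes with the largest decrease, 5' to 3' on the strand of the gene. Capitals mark GGGCGG (the GC box), TGANTCA (the AP-1 motif) and TATAAA (the TATA box) on either strand. The 3 GC boxes of ANXA2 overlap, and neighbouring ones share a G. The windows are chr11:35138921-35139170 for CD44, chr6:85449833-85450082 for NT5E, chr7:116524759-116525008 for CAV1 (the first of 3 listed starts) and chr15:60397987-60398236, minus strand, for ANXA2. RefSeq starts differ from the outer gene bounds of the count table, which take in all annotated transcripts, so the windows of CD44, NT5E and ANXA2 lie within those bounds and that of CAV1 overlaps its own.
CD44: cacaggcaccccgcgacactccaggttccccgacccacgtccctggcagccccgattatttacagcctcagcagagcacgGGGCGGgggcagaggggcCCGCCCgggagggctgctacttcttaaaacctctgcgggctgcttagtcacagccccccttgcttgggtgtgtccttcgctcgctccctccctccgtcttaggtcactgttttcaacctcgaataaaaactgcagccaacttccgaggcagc
NT5E: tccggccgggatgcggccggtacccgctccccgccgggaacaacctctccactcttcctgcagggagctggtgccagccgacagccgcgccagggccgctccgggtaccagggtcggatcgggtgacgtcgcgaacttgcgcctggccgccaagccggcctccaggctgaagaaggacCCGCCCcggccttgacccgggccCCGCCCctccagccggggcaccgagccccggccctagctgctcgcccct
CAV1: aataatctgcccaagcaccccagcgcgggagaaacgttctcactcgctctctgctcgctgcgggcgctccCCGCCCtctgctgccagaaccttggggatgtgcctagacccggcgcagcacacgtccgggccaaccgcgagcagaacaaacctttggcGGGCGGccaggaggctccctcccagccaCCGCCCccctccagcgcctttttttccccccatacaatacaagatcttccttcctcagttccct
ANXA2: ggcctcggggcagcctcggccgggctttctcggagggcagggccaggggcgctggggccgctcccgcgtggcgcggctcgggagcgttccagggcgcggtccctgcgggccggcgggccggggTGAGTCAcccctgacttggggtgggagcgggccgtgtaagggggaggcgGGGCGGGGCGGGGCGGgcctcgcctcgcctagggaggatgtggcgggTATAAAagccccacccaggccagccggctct
A GC box was found in 8 of the 9 promoters, all but ANXA1, and in 42.6% of the 35116 promoters of the table. Those 35116 were not matched to the markers for expression or GC content. The 4 printed windows were 62.4% to 78.0% GC, and the part of GC content in the count was not tested. The AP-1 motif was found in 1 of the 9, that of ANXA2, and in 6.57% of all. TATAAA was found in 2 of the 9, those of ANXA1 and ANXA2, and in 10.7% of all. AGGTCA, a core motif of retinoid receptor binding, was in the windows of NES and CD44 and in 12.1% of all, and GGAATG, the TEAD motif, was in none of the 9 and in 11.9% of all. These are matches of letters, and no occupancy was measured.

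With ZMYND8 KD, 6 of the 10 genes were higher than in KD control cells, and 4 did not pass the test. The 6 were VIM, CD44, NT5E, ANXA2, S100A10 and CAV1, and they rose by 1.26-fold to 1.52-fold. The test found 13.4% of 19789 genes higher and 10.8% lower at an adjusted p below 0.05, and 22.4% higher among genes of a mean normalized count above 1000, as all 10 had. No marker reached 1 on the log2 scale, in edgeR or in DESeq2, although 7 had an unadjusted p below 0.05. Past all thresholds, 1.36% of genes were higher. The median log2 fold change was 0.36 over the 10 genes and -0.01 over all tested genes. The share of all counts on the 10 genes was 0.433% and 0.407% in KD control libraries and 0.512% and 0.5002% in KD libraries.

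Among the surface and membrane proteins, ANXA2 rose most, from 796 and 740.1 CPM in KD control libraries to 1158 and 1174 CPM in KD libraries (log2 fold change 0.61, SE 0.0553, adjusted p = 3.41e-05). CAV1 rose from 88.9 and 87.6 CPM to 130.3 and 128 CPM (log2 fold change 0.55, SE 0.0479, adjusted p = 2.42e-05). S100A10 rose from 55.0 and 47.8 CPM to 75.0 and 71.2 CPM (log2 fold change 0.51, SE 0.0683, adjusted p = 0.000407). ANXA2 and S100A10, the members of the tetramer, rose by 1.52-fold and 1.43-fold. CD44 was at 647 and 581 CPM against 820.4 and 781 CPM, 1.31-fold higher (SE 0.0621 on the log2 scale, adjusted p = 0.00125). NT5E was at 337 and 323 CPM against 420.2 and 412 CPM, 1.26-fold higher (SE 0.0508 on the log2 scale, adjusted p = 0.000859). For these 5 genes, both KD libraries lay above both control libraries. The share of all tested genes so placed was not computed.

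Of the filaments, VIM rose with KD and NES did not pass the test. VIM was at 879 and 824 CPM in KD control libraries and at 1202 and 1151 CPM in KD libraries (log2 fold change 0.47, SE 0.0567, adjusted p = 0.000213). NES was at 895 and 849.9 CPM against 897 and 919 CPM, with a log2 fold change of 0.06 and a 95% confidence interval of -0.06 to 0.18 (adjusted p = 0.461). The lowest NES library of the KD group lay just above the highest control library, by less than the spread between the controls. ANXA1 was at 303 and 278 CPM against 296 and 296 CPM (log2 fold change 0.03, interval -0.09 to 0.15, adjusted p = 0.744). S100A6 was at 136 and 118 CPM against 132 and 144 CPM (log2 fold change 0.12, interval -0.03 to 0.28, adjusted p = 0.245). In both of these genes the libraries of the 2 groups overlapped. LGALS1 was the one marker with a value below 0, at 335 and 291 CPM in control libraries and 277 and 275 CPM in KD libraries (log2 fold change -0.18, interval -0.32 to -0.03, adjusted p = 0.0715). Both KD libraries lay below both control libraries. LGALS1 passed the threshold in 5 of the alternative fits, among them the one without KD control replicate 2 (log2 fold change -0.28, adjusted p = 0.0208).

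**Figure D2:**
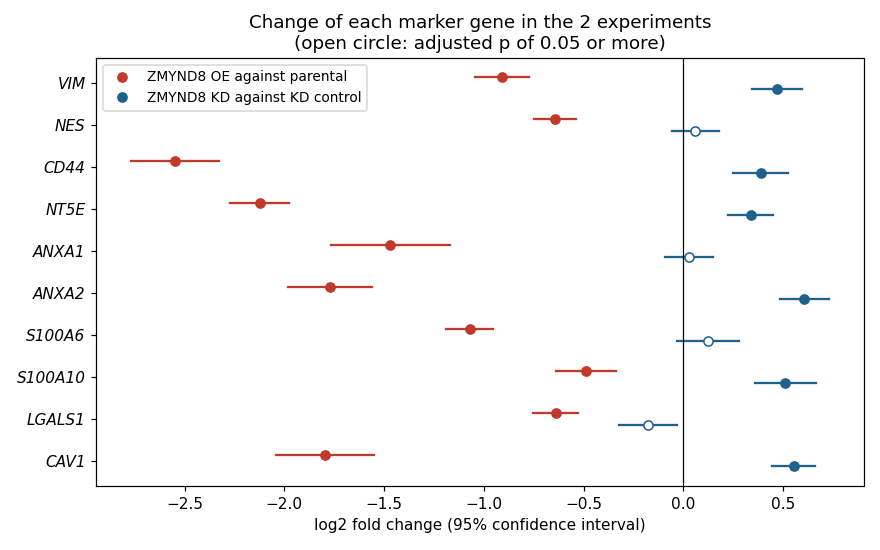
Log2 fold change of each marker gene with its 95% confidence interval, in red for ZMYND8 OE against parental and in blue for ZMYND8 KD against KD control; open circles have an adjusted p of 0.05 or more. All red points lie below 0, from -2.55 for CD44 to -0.49 for S100A10, and the 6 filled blue points lie between 0.34 and 0.61.

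The effects of OE and KD have no control library in common, and their difference was tested with the 8 libraries in 1 model. It was below 0 at an adjusted p below 0.05 for 10 of the 10 markers, where 24.4% of 22619 tested genes were. The share among genes of a mean normalized count above 1000, as all 10 had, was not computed for this difference. CD44 differed most, by -2.94 on the log2 scale (SE 0.129, adjusted p = 9.93e-11), followed by NT5E with -2.47 (SE 0.0882, adjusted p = 1.18e-11). ANXA2 and CAV1 came next, with differences of -2.38 and -2.36. LGALS1 had the smallest difference, -0.47 (SE 0.0885, adjusted p = 0.000456), and with total counts alone as the scaling it was -0.15 (adjusted p = 0.143). For ANXA1, S100A6 and NES the difference, of -1.50, -1.20 and -0.71, came mostly from OE, since their KD values were 0.03, 0.12 and 0.06. The OE value was also the larger in size for CD44 (-2.55 against 0.39), NT5E, ANXA2, CAV1 and VIM (-0.91 against 0.47). S100A10 had -0.49 with OE and 0.51 with KD. LGALS1 was below 0 in both, at -0.64 and -0.18, so its difference was smaller than its OE value. The difference thus rests largely on the OE values given above.

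Scaling by total counts alone in place of TMM moved the median of all tested genes in the OE comparison from 0.03 to 0.29 on the log2 scale. It turned the split of 6604 higher and 6059 lower genes into 10090 higher and 3583 lower. All 10 markers were still lower with an adjusted p below 0.05. In the KD comparison the split of 2653 higher and 2146 lower genes became 2006 higher and 3081 lower, and the 6 markers that rose passed under that scaling too. For the difference of the effects, 5569 higher and 5512 lower became 9120 higher and 3238 lower.

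The control groups of the experiments were also unlike each other, and the order of the 4 groups differed between markers. Parental cells had the highest mean of VIM, NT5E, ANXA2, S100A6, S100A10, LGALS1 and CAV1, whereas ZMYND8 KD cells had the highest mean of NES, CD44 and ANXA1. ZMYND8 OE cells had the lowest mean of NES, CD44, NT5E, ANXA1 and ANXA2, KD control cells that of VIM, S100A6, S100A10 and CAV1, and KD cells that of LGALS1. The means of the highest and the lowest group differed by 8.78-fold for CD44, 4.74-fold for CAV1 and 4.39-fold for NT5E, and by 2.00-fold for S100A10. Libraries of neighbouring groups in the order overlapped between ZMYND8 KD and ZMYND8 OE for VIM, S100A10 and CAV1, between KD and KD control for ANXA1 and S100A6, and between KD control and parental for ANXA1. No neighbouring groups overlapped for NES, CD44, NT5E, ANXA2 and LGALS1. The order and overlap were read for the markers only, and the share of all genes without overlap was not computed.

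Against parental cells, KD control cells had lower levels of 7 markers and a higher level of NES at an adjusted p below 0.05, where 33.9% of tested genes were lower and 31.2% higher. These shares are over all tested genes, and none was computed for genes of high counts alone. CAV1 was 4.74-fold lower (log2 fold change -2.25, adjusted p = 4.96e-11), NT5E 3.50-fold lower and S100A6 3.44-fold lower. NES was 1.53-fold higher (log2 fold change 0.61, adjusted p = 6.53e-08). CD44 and ANXA1 did not pass, with log2 fold changes of 0.19 (adjusted p = 0.0695) and 0.03 (adjusted p = 0.847). The experiment, Dox and the manipulation of the cells differ together between these groups and cannot be told apart.

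VIM shares its locus with genes on the opposite strand, VIM-AS1 among them, which cover 24.3% of its exon bases. Counts of VIM-AS1 were 4.62% to 5.03% of those of VIM in the 4 libraries of the overexpression experiment and 0.0921% to 0.147% in the 4 of the knockdown experiment, so that VIM-AS1 had a log2 fold change of -6.61 between KD control and parental cells where VIM had -1.37. The strand setting of the counting is not given in the sources used here, so its part in the level of VIM between the experiments was not tested. Within the overexpression experiment VIM-AS1 fell by 0.93 on the log2 scale, close to the 0.91 by which VIM fell. For ANXA2, whose processed pseudogenes can take up its reads, the pseudogene ANXA2P2 held 7.07% to 7.35% of the counts of ANXA2 in one experiment and 4.45% to 4.62% in the other. ANXA2P2 changed by -1.78 with OE and by 0.57 with KD, near the -1.77 and 0.61 of ANXA2. Opposite-strand genes covered 0.84% of the exon bases of CD44 and 2.37% of those of S100A6.

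Ratios of counts within a library show where paired markers moved apart. ANXA2 had 15.6 and 16.3 counts per count of S100A10 in parental libraries and 6.82 and 6.19 in OE libraries. In the knockdown experiment the ratio was 14.5 and 15.5 in KD control libraries and 15.4 and 16.5 in KD libraries. The ratio was thus lower in both OE libraries than in any other library. VIM had 3.82 and 3.91 counts per count of NES in parental libraries, 3.45 and 2.98 in OE libraries, 0.982 and 0.969 in KD control libraries and 1.34 and 1.25 in KD libraries. Here the gap lay mainly between the experiments. CAV1 had 4.05 and 3.61 counts per count of its partner CAV2 in parental libraries, 4.82 and 4.03 with OE, 5.65 and 5.29 in KD control libraries and 3.82 and 4.09 with KD.

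**Figure D3:**
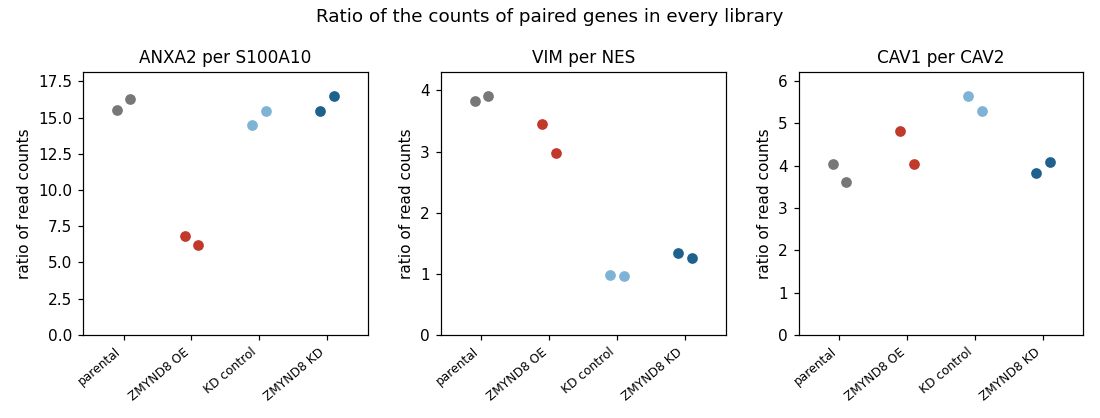
Ratios of read counts within each library for ANXA2 per S100A10, VIM per NES and CAV1 per CAV2, on linear axes that start at 0, with 1 point per library. ANXA2 per S100A10 is 6.82 and 6.19 in ZMYND8 OE libraries and 14.5 or more in the other 6, and VIM per NES is 2.98 or more in the overexpression experiment and 1.34 or less in the knockdown experiment.

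Per length, as TPM (counts per exon length, relative to the sum of these over all genes of the library), LGALS1 was the most abundant marker in all 4 groups, with a mean of 2034 TPM in parental, 1439 in OE, 958 in KD control and 784 in KD cells. CD44 was the lowest in parental and OE cells, at 199 and 37.4 TPM, and CAV1 the lowest in KD control and KD cells, at 74.7 and 101 TPM. With the length of the canonical transcript in place of all exons, ANXA2 moved up from 305 to 1599 TPM in KD cells and stood above LGALS1 there, at 1114 TPM. CD44 and CAV1 were the lowest of the 10 in the same groups with either length.

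The other genes of these families were read from lists by function. The list counts here and below stand beside shares over all tested genes. These were 29.1% lower and 31.7% higher with OE, and 13.4% higher and 10.8% lower with KD. Between KD control and parental cells they were 33.9% lower and 31.2% higher. Above a mean normalized count of 1000, 47.9% were lower with OE and 22.4% higher with KD. No list was tested as a set. Of the 10 other annexins, 8 were tested with OE and 8 were lower, among them ANXA3 (log2 fold change -1.94, adjusted p = 1e-06), ANXA11 (-1.36) and ANXA5 (-1.15), a protein used to detect exposed phosphatidylserine. Between KD control and parental cells, these 8 were lower too (median -0.94). ANXA5 was at -1.56 there, ANXA3 at -1.07 and ANXA11 at -0.35. Of the 7 tested with KD, 2 were higher and 1 lower. ANXA3 rose by 0.68 (adjusted p = 0.000458), and ANXA4 fell by 0.35 (adjusted p = 0.00135), as it also fell with OE, by 1.02. The median log2 fold change was -1.26 with OE and 0.09 with KD. Among 17 other S100 genes, 7 were tested with OE, of which 6 were lower and S100B, a glial and melanocytic S100 protein, was higher (3.14) from a level of 0.25 CPM in parental cells. S100A3 (-2.77), S100A16 (-2.10) and S100A11 (-1.25) were among the lower ones. With KD, 3 of the 7 were higher, with S100A16 at 0.40 and S100A11 at 0.29, and the other 4 did not pass.

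Intermediate filament genes did not move in 1 direction. Of the 14 genes other than VIM and NES, 13 were tested with OE, 5 were higher and 6 were lower, with a median of -0.32. All 5 that rose encode filaments of neurons. NEFL, the light neurofilament chain, was at 7.72 and 7.00 CPM in parental libraries and at 179 and 191 CPM in OE libraries (log2 fold change 4.66, SE 0.0694, adjusted p = 1.94e-11), NEFM rose by 4.11 and INA by 3.44. PRPH rose by 2.48 from 0.28 and 0.19 CPM. KD control libraries held 163 and 175 CPM of NEFL, and against parental cells NEFL was higher there by 4.52, NEFM by 5.77 and INA by 3.29 on the log2 scale. Among the lower ones were KRT8, a keratin of simple epithelia (-1.81), and LMNA, the nuclear lamin A and C gene (-1.22). Between KD control and parental cells, KRT8 was at -1.555 and LMNA at -1.27. With KD, 3 of 12 were higher and 4 lower, with a median of -0.06. NEFL and NEFM fell by 0.39 and 0.30 (adjusted p = 0.00217 and 0.0253), and KRT8 rose by 0.44.

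Of the 18 genes listed with CD44 for hyaluronan and the ERM linker proteins, 15 were tested with OE, 12 were lower and 2 higher (median -0.75). SPP1, or osteopontin, a secreted ligand of CD44, was at 21.9 and 20.5 CPM in parental and at 2.01 and 1.93 CPM in OE libraries (log2 fold change -3.42, adjusted p = 1.43e-09). CEMIP, a hyaluronan-degrading protein, fell by 3.35, and MSN, or moesin, which ties CD44 to actin, by 1.38, while EZR fell by 0.30. With KD, 3 of 14 were higher and 3 lower (median -0.08). SPP1 rose by 0.48, MSN by 0.20 and NF2, the merlin gene, by 0.72 (adjusted p = 1.35e-05). The hyaluronan synthases HAS2 and HAS3 fell in both comparisons, by 2.02 and 2.41 with OE and by 1.05 and 0.87 with KD, unlike CD44.

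The enzymes and receptors of adenosine around NT5E were split. Of 13 tested with OE other than NT5E, 8 were higher and 5 lower (median 0.80). Among the higher ones, ENTPD1, ENTPD3, ENTPD8, ENPP1, ALPL and ADORA2A were low, at 4.18 CPM or below in every library. The count and the median thus rest largely on genes of low level. DPP4, a surface peptidase that binds adenosine deaminase, fell by 2.06 (adjusted p = 9.2e-09) and the adenosine deaminase gene ADA by 0.30, whereas the nucleoside transporters SLC29A1 and SLC29A2 rose by 0.70 and 0.89. With KD, 4 of 10 were higher and 2 lower (median 0.20), and these 4 genes changed the other way, with DPP4 at 0.58, ADA at 0.60, SLC29A1 at -0.26 and SLC29A2 at -0.50. ENTPD1, the enzyme upstream of NT5E, was at 1.39 CPM or below in every library and was not tested with KD.

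Of 13 caveola genes other than CAV1, 12 were tested with OE, 9 were lower and 3 higher (median -0.71). CAV2 was at 107 and 112 CPM in parental libraries and at 28.4 and 25.3 CPM in OE libraries, a log2 fold change of -2.02 (adjusted p = 1.52e-09). With KD it rose from 15.7 and 16.6 CPM to 34.2 and 31.3 CPM, a log2 fold change of 1.02 (adjusted p = 8.71e-06), more than CAV1. CAVIN1, the coat protein that caveolae need to form, fell by 1.20 with OE and rose by 0.21 with KD (adjusted p = 0.045). With KD, 7 of 12 were higher and 2 lower (median 0.23), and EHD2, which stabilises caveolae at the membrane, was among the lower, at -0.38 after -1.31 with OE. CAVIN4, a muscle cavin at 1.76 to 5.57 CPM, moved the other way, by 1.06 with OE and -0.48 with KD.

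Galectins and ligands of galectin-1 were mostly lower with OE, with 7 of 10 genes other than LGALS1 lower and 1 higher (median -0.76). NRP1, a co-receptor, fell by 1.55, the integrin chain ITGB1 by 1.16 and LGALS3 by 1.04. Between KD control and parental cells, 8 of the 10 were lower and 0 higher. NRP1 was at -1.45 there, ITGB1 at -0.47 and LGALS3 at -0.09. With KD, 1 of 9 was higher, the lysosomal glycoprotein gene LAMP2 (0.24), and the other 8 did not pass (median 0.02). Of the genes for partners of annexins and S100 proteins, 7 of 8 were lower with OE and 1 higher (median -0.91). PLAT, the tissue plasminogen activator whose protein binds ANXA2, was at 3250 and 3367 CPM in parental and at 457 and 400 CPM in OE libraries (log2 fold change -2.94, adjusted p = 1.87e-10). AHNAK, a giant scaffold protein bound by ANXA2 with S100A10, fell by 0.72. With KD, 2 of 8 were higher and 1 lower (median 0.09), where PLAT fell again, by 0.69, and DYSF, the membrane repair gene dysferlin, rose by 1.79 (adjusted p = 9.13e-06) from 5.90 and 4.35 CPM. DYSF was also the gene that was higher with OE, by 0.53 (adjusted p = 0.00537), so that it rose in both comparisons.

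Surface proteins of mesenchymal stromal cells other than CD44 and NT5E were lower with OE in 14 of 19 genes and higher in 3 (median -0.60). PDGFRB, a platelet-derived growth factor receptor, fell by 1.94, EGFR by 1.98 and AXL by 0.98. THY1, a defining marker of stromal cells, fell by 0.19, and PDGFRA had a log2 fold change of 0.00 (adjusted p = 0.966). NGFR, the low-affinity neurotrophin receptor of neural crest cells, rose from 4.31 and 3.56 CPM to 68.2 and 86.6 CPM (log2 fold change 4.32), and KD control libraries held 81.1 and 70.7 CPM of it. Between KD control and parental cells, 12 of the 19 were lower and 4 higher. PDGFRB was at -1.75 there, EGFR at -1.83 and AXL at -0.42. With KD, 8 of 19 were higher and 1 lower (median 0.07). AXL rose by 0.71, PDGFRB by 0.65, THY1 by 0.33 and NGFR by 0.82, so that NGFR rose in both comparisons, and PDGFRA fell by 0.40.

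**Figure D4:**
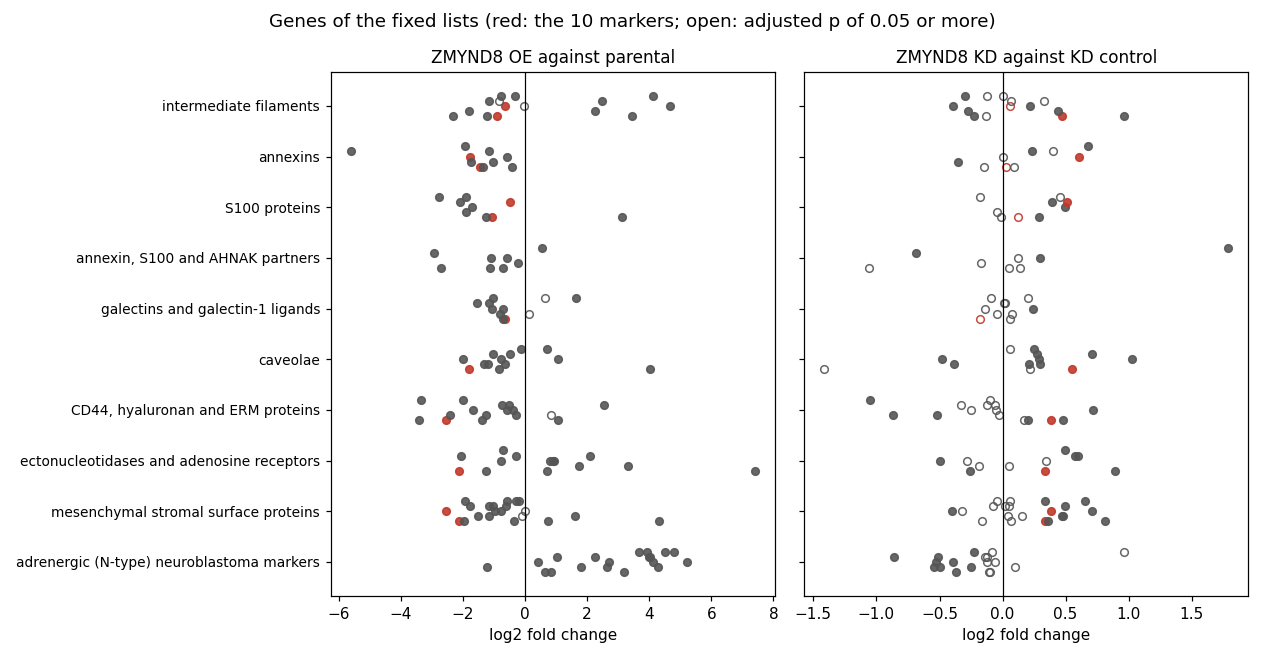
Log2 fold change of every tested gene of 10 gene lists, with ZMYND8 OE against parental on the left and ZMYND8 KD against KD control on the right (the axes have different ranges); red points are the 10 markers and open points have an adjusted p of 0.05 or more. Annexin genes all lie below 0 with OE, filament genes lie on both sides from -2.31 to 4.66, and 18 of 19 adrenergic markers lie above 0.

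Markers of the adrenergic state went the other way with OE, with 18 of 19 tested genes higher and 1 lower (median 3.19). HAND1, a transcription factor of sympathetic neurons, was at 1.86 and 1.80 CPM in parental and at 42.4 and 40.5 CPM in OE libraries (log2 fold change 4.51, adjusted p = 7.45e-11), and at 33.0 and 33.6 CPM in KD control libraries. TBX2 was the exception, at -1.24. With KD 9 of 18 were lower and the other 9 did not pass (median -0.18). Among the lower were DBH, the enzyme that makes noradrenaline (-0.86), and TBX2 (-0.55). The summed level of the list was 859 and 894 CPM in parental, 4018 and 4425 in OE, 2950 and 3198 in KD control and 2286 and 2601 in KD libraries. TH, the first enzyme of catecholamine synthesis, stayed below 1 CPM in every library.

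Most listed markers of other cell types were low. Of 8 blood cell markers, 7 were below 1 CPM in every library, PTPRC (CD45) among them, and their sum was 0.295 to 2.53 CPM. Endothelial markers summed to 1.69 to 4.87 CPM, with CDH5 and TEK below 1 CPM in every library. Epithelial markers summed to 8.69 to 12.9 CPM, with CDH1 and KRT5 below 1 CPM in every library. KRT8 and KRT18, keratins of simple epithelia that were listed with the filaments and not in that sum, were at 19.9 to 76.5 CPM and at 147 to 405 CPM over the 8 libraries. The labels give the cell type as epithelial. Schwann cell and melanocyte markers summed to 33.7 and 34.8 CPM in parental and 27.8 and 29.5 CPM in OE libraries, and to 32.0 and 32.0 CPM in KD control and 41.1 and 40.02 CPM in KD libraries, with SOX10 below 1 CPM throughout and MBP the highest. In tests of the single genes, 3, 2 and 1 of 7, 6 and 4 tested genes of the Schwann, endothelial and epithelial lists were higher with OE and 1, 3 and 1 lower, and the 1 tested blood gene, CSF1R, was lower. With KD, 2 of 7 Schwann genes, 1 of 4 epithelial genes and 1 of 3 blood genes were higher, and 1 of 5 endothelial genes was lower. The part of these cell types in the result was not tested.

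The genes whose pattern over the 8 libraries was nearest to a marker were sought among 13555 genes of a mean normalized count above 100, by the root mean square distance of log2 CPM values centred on their own mean. Nearest to NT5E was EGFR (distance 0.0728 on the log2 scale), and nearest to CD44 were COL13A1 (0.0936), MYO1E (0.110) and IRAK2 (0.123). NT5E was followed by STAMBPL1 and COL3A1. ANXA1 lay nearest to the actin crosslinker gene ACTN4 (0.0908), then IQGAP2 and FAM83G, and ANXA2 nearest to PDGFD (0.0933), then SLC45A3 and PITPNM2. For CAV1 the nearest were LIPA (0.115), PRSS23 and CRYBG1, and for VIM they were the syndecan gene SDC3 (0.0631), PRDX4 and MAGEC1. NES was nearest to SMURF2 (0.0401), TTC1 and RIOX2, S100A6 to OSTF1 (0.0505), SERPINB1 and POGLUT3, and LGALS1 to SLC25A1 (0.0476), FDFT1 and NIT1. S100A10, whose highest and lowest group means differed by 1.00 on the log2 scale, fell short of the limit for this search. No marker had another marker among its 3 nearest genes. The distances take in the gap between the experiments as well as the OE and KD changes. Distances between markers are not given, so the search does not show whether the markers moved together.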

How the data were processed

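RNA from SK-N-SH cells was sequenced after rRNA depletion in 8 libraries of 4 groups. The authors deposited counts of reads per gene, not normalized, together with the exon length of each gene. Per the study's methods, reads were trimmed with Trim_Galore, mapped by Hisat2 to GRCh38 and assigned to GENCODE genes by featureCounts, and the strand setting is not given in the sources used here. Of 60662 table lines, 3 that belong to 1 gene split over several lines were left out. Symbols were taken from GENCODE 44, which held 60462 of 60659 identifiers. Counts were filtered with filterByExpr, scaled by TMM and compared by the two-sided quasi-likelihood test of edgeR 4.0.16 (with limma 3.58.1 in R 4.3.3), and p-values were adjusted over all tested genes by Benjamini-Hochberg. OE and KD were each fitted on their own 4 libraries, and the difference of the effects and the comparison of the control groups on all 8. A gene passed all thresholds when its adjusted p was below 0.05, its log2 fold change was 1 or more in size and its mean normalized count exceeded 20, the limits of the study with an adjusted p. CPM values were scaled by TMM over 8 libraries, TPM was computed from the exon lengths, and a pseudocount of 0.01 CPM was added for the pattern distances. Named genes were the 10 markers, ZMYND8, the 2 largest increases and 2 largest decreases per list and comparison at a mean normalized count above 100 (not all of these are named), partners of the markers and the 3 nearest genes. ANXA11, S100B, EGFR, PDGFRB, CSF1R, ENTPD3, ENTPD8, ENPP1, ALPL, ADORA2A and the overlapping genes and pseudogenes were named after their values were seen. The markers and lists were chosen with earlier results of these data known. Alternatives were other scalings, DESeq2 1.42.0, no filter, a replicate block, length and GC corrections, 1 library left out, other thresholds and other lengths for TPM. The scripts were tested on simulated data. With 2 libraries per group an exact permutation test cannot reach 0.05, and none was run. Replicates differed by more than counting noise (chi-square divided by its degrees of freedom, 6.05 to 8.86).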

Additional observations from a re-analysis of the deposited data

How the results depend on the processing

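The 10 markers were lower with OE at an adjusted p below 0.05 under all 14 other fits, and the 6 that rose with KD rose under all 14. The difference of the effects was below 0 for the 10 markers under its 17 other fits and passed in each but that of LGALS1 with total counts alone (-0.15, adjusted p = 0.143). With the fold and count limits added, the number of markers was 6 for OE and 0 for KD, and that of all genes was 3876 for OE, 388 for KD, 4244 for the difference and 4595 for the control groups. Without the filter on low counts, 2970 genes had an adjusted p below 0.05 with KD in place of 4799, and with 1 library left out 2813 to 4603 did, the lowest without KD control replicate 2. ANXA1 changed sign where its value was near 0. With KD it was -0.027 with total counts alone and -0.031 to 0.085 with 1 library left out, and between the control groups it was -0.13 with the length and GC correction, chosen after seeing the data, and -0.036 to 0.087 with 1 library left out. LGALS1 passed with KD under upper quartile scaling (adjusted p = 0.0463), total counts alone (0.0188) and the replicate block (0.0218, also with the length correction, 0.034), and its range over all fits was -0.28 to -0.08. CD44 passed between the control groups in 8 fits, at 0.18 to 0.27. With total counts alone or upper quartile scaling, 5 markers and not 6 reached the fold limit with OE. The cause of these changes was not tested.

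Replicate numbers are shared by the groups, but replicates with the same number deviated together only weakly (r = 0.0926 across genes in the overexpression and 0.204 in the knockdown experiment), and with 2 pairs nothing in the labels ties them. With the replicate block, 12742 genes had an adjusted p below 0.05 with OE and 6318 with KD, against 12663 and 4799 without it, and 10 and 7 markers did. Between KD control and parental the correlation was -0.113, and a crossed block gave 14617 calls. With 2 libraries per group, log2 changes of the markers carried standard errors of 0.0473 to 0.134 in the OE and KD comparisons and 0.0720 to 0.164 for the difference of the effects.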
